A study of Homo sapiens with 6 samples.

Results

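The genes described here encode the heat shock chaperones of the cytosol, nucleus and mitochondria, together with their co-chaperones and the heat shock transcription factors. They were chosen by name as a list of 46 genes, with earlier results of these data known. Shares of the list that rose or fell therefore describe the list and are no test of it. A gene was read from the probe sets that carry its symbol alone. Of the 46 genes, 42 had at least 1 such probe set, 134 probe sets in all, out of 18132 genes and 44988 probe sets on the array. HSPA1A, HSPB11, HSF2 and AHSA1 had none and were not analysed here. The cells were 786-O, an established human renal cell carcinoma line, in 2 groups that both received shRNA by lentivirus. The shERCC6L group (3 arrays) carried an shRNA against ERCC6L, a DNA translocase of anaphase chromatin threads, and the shNC group (3 arrays) a negative control shRNA. The number of hairpins, any cloning of the cells and the origin of the replicates (separate cultures or not) are not given in the labels. The p-values therefore reflect only how far these particular samples scatter, and that scatter may be technical.

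Chaperones of the HSP70 family bind exposed hydrophobic stretches of unfolded proteins and release them in a cycle driven by ATP. J proteins (the DNAJ genes) deliver clients and trigger ATP hydrolysis, while HSP110 and BAG proteins exchange the nucleotide and so release the client. HSP90 takes over kinases, steroid receptors and other clients at a late stage of folding, with a set of co-chaperones that load it and pace its cycle. The transcription factor HSF1 raises many of these genes when unfolded proteins accumulate, by binding heat shock elements in their promoters.

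The target transcript was lower in the knockdown: ERCC6L read 97.59, 97.49 and 97.83 on the shERCC6L arrays, against 239.9, 244.3 and 261.4 on the shNC arrays. Signals are linear intensities, and array medians ran from 60.04 to 61.21 in shERCC6L and from 60.37 to 61.56 in shNC. Arrays of one group correlated at 0.9987 to 0.9991, and arrays of different groups at 0.9934 to 0.9942. Of the renal carcinoma markers, 6 of 8 were measured, and PAX8, PAX2, KRT8, KRT18, VIM and EPAS1 were all above the median level of all genes. PAX8 and KRT18 were higher (0.34 and 0.13) and EPAS1 was lower (-0.36) in shERCC6L, as log2 fold changes. Of the markers of other cell types, 5 each of leukocytes, endothelium and fibroblasts were measured, and only CD68 reached the median level. Their summed signals ran from 202.8 to 211.4 in shERCC6L and 173.4 to 193.3 in shNC for leukocytes, from 282.6 to 287.3 in shERCC6L and 301.2 to 302.4 in shNC for endothelium, and from 129.3 to 131.7 in shERCC6L and 148.6 to 159.7 in shNC for fibroblasts. CD68 was higher (0.23, adjusted p = 0.0107) and TIE1 and COL1A1 were lower (-0.14 and -0.38, adjusted p = 0.0451 and 0.000357) in shERCC6L, and the other 12 did not pass. PTPRC, the defining leukocyte marker, read 6.76 to 7.81 in shERCC6L and 7.16 to 7.47 in shNC, and the part of these genes in the results was not tested. In a bulk sample, fewer cells of a type and less RNA per cell cannot be told apart.

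Most chaperone genes were moderately higher in shERCC6L cells. Of the 42 genes, 26 rose, 4 fell and 12 did not pass the test (limma, adjusted p under 0.05 over all genes), while 31.6% of all genes passed in one direction or the other. The share that rose was 61.9%, where 18.2% of all genes rose. Among the brighter genes, those that reach the median level as 40 of the 42 do, 32.8% rose. The share that fell was 9.52%, beside 13.4% of all genes and 19.6% of the brighter ones. The median log2 fold change was 0.21 over the members and -0.01 over all genes, or 0.04 over the brighter ones. All fold changes are shERCC6L over shNC on log2(signal + 16), which understates the change of dim genes. Changes were small: only CHORDC1 rose and only HSPB8 and DNAJC8 fell by 1.5-fold or more, as did 0.711% (higher) and 1.37% (lower) of all genes. The groups did not overlap for 35 of the 42, which is 83.3%, beside 43.4% of all genes. Of the 42, 30 were higher without overlap and 5 lower without overlap. Of all 18132 genes, 4187 (23.1%) were higher and 3688 (20.3%) lower without overlap. The shares without overlap were not computed for the brighter genes.

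**Figure D1:**
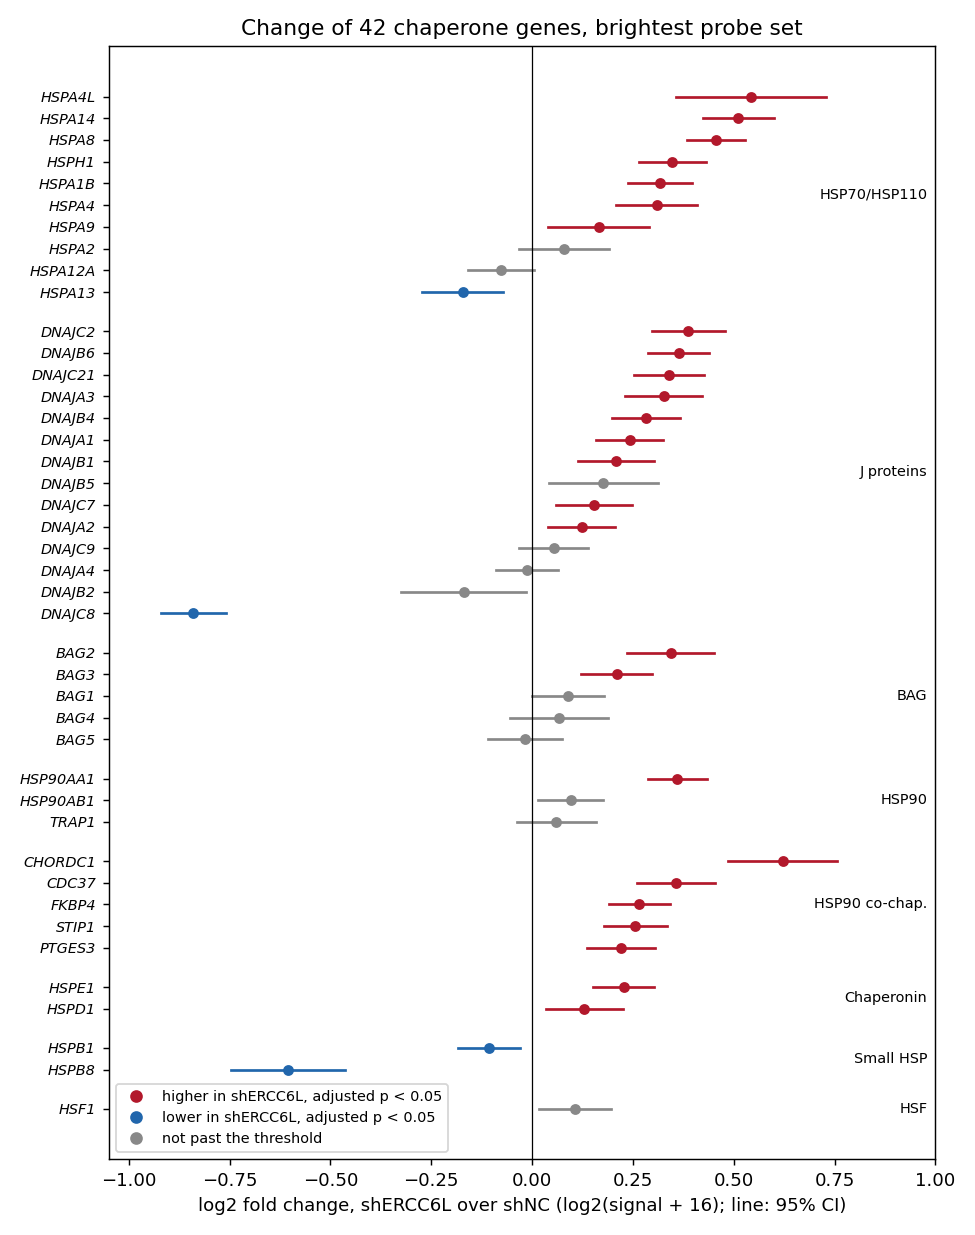
Log2 fold change (x axis, shERCC6L over shNC on log2(signal + 16)) of each of the 42 measured genes, grouped by role, with points for the estimate and lines for the 95% confidence interval from limma. The 26 red points lie right of 0 in every role except the small heat shock proteins and HSF1, and DNAJC8 at -0.84 lies farthest left.

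**Figure D2:**
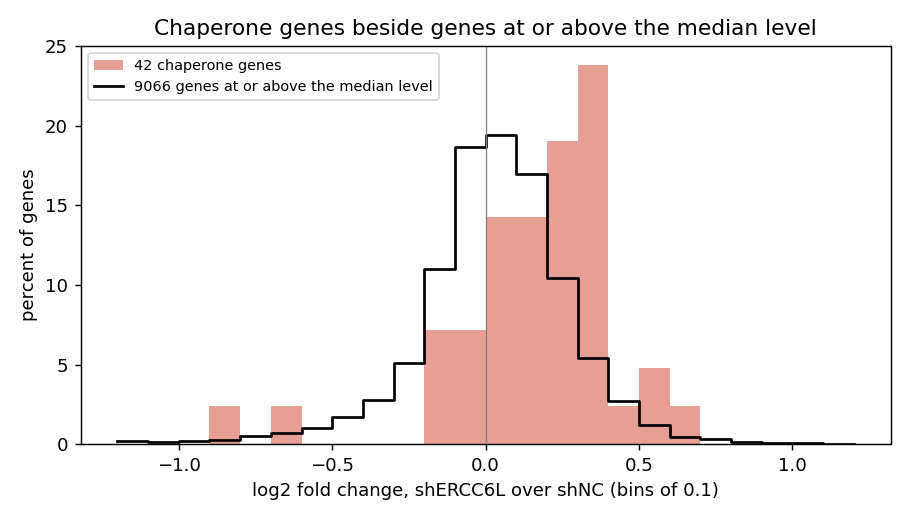
Percent of genes (y axis) in bins of 0.1 of the log2 fold change (x axis, shERCC6L over shNC), as bars for the 42 chaperone genes and as a line for the 9066 genes that reach the median level. The bars centre on a median of 0.21 and the line on 0.04.

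The promoters were searched for an exact form of the heat shock element, the sequence that HSF1 is known to bind. Windows of 300 bases, 250 before and 50 after each annotated start, were taken from RefSeq (GRCh38.p14) for 41 of the 46 genes, some with several starts. The others are HSF1, FKBP4, BAG4, HSPA14 and HSPB11. They were searched on both strands for GAANNTTCNNGAA, where N is any base. The 8-letter palindromes GAANNTTC and TTCNNGAA, parts of that motif, were searched separately. The long motif occurred in 7 of the 58 windows (12.1%) and in 172 of all 35116 windows (0.49%). It lay in windows of CHORDC1, HSPA8, HSP90AA1, DNAJB6, DNAJA1, HSPD1 and HSP90AB1. GAANNTTC occurred in 15 of the 58 windows (25.9%), beside 6.77% of all, and TTCNNGAA in 11 (19%), beside 7.74%. The first palindrome but not the long motif lay in windows of HSPA1A, HSPA1B, DNAJB1, BAG2, DNAJA4, HSPB1 and HSPB8, so genes that rose, genes that fell and a gene that did not pass had it. TTCNNGAA but not the long motif lay in windows of HSPA4L, HSPA9, DNAJB4 and STIP1. These genes rose, HSPA9 only just, but so did 61.9% of all measured members. The share that rose among all genes with TTCNNGAA was not computed. A match describes letters and shows no binding. Elements with other letters or outside the windows were not searched for, so a gene without a match may still have an element.

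The matches are shown because they are the letters that these promoters share, 5′ to 3′ on the strand of the gene, with the letters of the long motif in capitals. CHORDC1 (chr11:90223067-90223129, minus strand) held 3 overlapping matches that end 38 bases before the start. HSPA8 is given with its whole window (chr11:123062087-123062386, minus strand), with 2 matches. HSP90AA1 is from chr14:102087100-102087152 (minus strand) and DNAJB6 from chr7:157336853-157336905 (plus strand). DNAJA1 is from chr9:33025256-33025308 (plus strand), where the match lies 3 to 15 bases after the first transcribed base. HSPD1 is from chr2:197500048-197500090 (minus strand), between its 2 annotated starts, and HSP90AB1, with 2 matches, from chr6:44247758-44247863 (plus strand).
CHORDC1: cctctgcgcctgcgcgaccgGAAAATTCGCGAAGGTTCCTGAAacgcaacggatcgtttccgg
HSPA8: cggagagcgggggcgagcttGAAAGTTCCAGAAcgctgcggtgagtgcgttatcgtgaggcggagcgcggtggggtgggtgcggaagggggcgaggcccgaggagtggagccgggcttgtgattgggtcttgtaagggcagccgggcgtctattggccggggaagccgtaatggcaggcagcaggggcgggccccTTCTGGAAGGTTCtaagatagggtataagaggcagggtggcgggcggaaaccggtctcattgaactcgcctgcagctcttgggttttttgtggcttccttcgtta
HSP90AA1: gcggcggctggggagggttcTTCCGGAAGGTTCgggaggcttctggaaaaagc
DNAJB6: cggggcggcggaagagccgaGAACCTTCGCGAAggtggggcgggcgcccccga
DNAJA1: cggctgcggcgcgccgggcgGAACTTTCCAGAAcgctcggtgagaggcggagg
HSPD1: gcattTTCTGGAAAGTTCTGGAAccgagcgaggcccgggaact
HSP90AB1: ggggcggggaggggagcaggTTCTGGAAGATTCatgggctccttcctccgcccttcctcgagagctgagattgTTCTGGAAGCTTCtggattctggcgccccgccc

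Of these 7 genes, 6 rose and HSP90AB1 did not pass, and their median log2 fold change was 0.36. Of the 31 measured members with a window and no exact match to the long motif, 18 rose and 4 fell, with a median of 0.18. Among the 74 other measured genes with the long motif in a window, 10 rose and 16 fell, with a median of -0.01. The share that rose was 13.5% of these genes, beside 19.4% of all 14425 measured genes with a window. These are descriptions of counts, and no test of the motif was made.

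In the HSP70 and HSP110 family 7 of 10 genes rose (70%) and 1 fell (10%), beside 18.2% and 13.4% of all genes. Of the 10, 9 reach the median level, and among such brighter genes 32.8% rose and 19.6% fell. HSPA8, the constitutive cytosolic HSP70 that also uncoats clathrin vesicles, read 8756, 8887 and 8995 on the shERCC6L arrays, against 6437, 6476 and 6501 on the shNC arrays. Every shERCC6L array was above every shNC array, and the gap was many times the spread within either group. The fold was 1.37, a log2 change of 0.46 ± 0.03 (SE, n = 3 per group, adjusted p = 1.04e-05), and 8 of its 9 probe sets rose. HSPA14, the HSP70 relative that sits on the ribosome and receives nascent chains with DNAJC2, read 864.5, 858.4 and 918.6 in shERCC6L, against 602.3, 606.2 and 629.3 in shNC. Its 4 probe sets all rose, by 0.41 to 0.57, and the brightest by 0.51 ± 0.04 (adjusted p = 1.71e-05).

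The 3 cytosolic HSP110 genes, whose products act as nucleotide exchange factors for HSP70, all rose. HSPA4L read 256.1, 257.4 and 298.7 in shERCC6L, against 161.9, 204.8 and 176.7 in shNC. The groups were apart although both were scattered, and the log2 change was 0.54 ± 0.08 (adjusted p = 0.000898). HSPA4 rose 1.24-fold to 1338 ± 63.6 in shERCC6L, against 1076 ± 36.7 in shNC (SD, n = 3 each). Within arrays its change was below that of HSPA4L by 0.23 ± 0.07 on the log2 scale (SE, no overlap between groups, exact permutation p = 0.10, adjusted p = 0.13 over 4 pairs of members). HSPH1 rose by 0.35 ± 0.04 on its brightest probe set, at 1042 ± 16.5 in shERCC6L and 815 ± 25.6 in shNC. Its 8 probe sets all rose, and 5 of them by more than 0.55, so the brightest lay near the low end of their range of 0.33 to 0.63. HSPA1B, a stress-inducible HSP70, read 366.5, 362.1 and 373.5 in shERCC6L, against 298.5, 283.2 and 293.8 in shNC, a log2 change of 0.32 ± 0.04. Its single probe set may also read HSPA1A, a near-identical gene with which HSPA1B shares the 4 further probe sets that were set aside.

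The other 4 family members differed from these. HSPA9, the mitochondrial HSP70 known as mortalin, read 2121, 2103 and 2315 in shERCC6L, against 1862, 2087 and 1881 in shNC. Its groups were almost touching, and the log2 change of 0.16 ± 0.06 only just passed (adjusted p = 0.0484). The call ended without any of 5 arrays: the adjusted p was 0.065, 0.0626 and 0.145 without shERCC6L replicate 1, 2 or 3, and 0.153 and 0.146 without shNC replicate 1 or 3. It also ended with median centring (0.0548), a pseudocount of 1 (0.0828) and a replicate block (0.0645). HSPA13, a divergent HSP70 associated with microsomes, fell by 0.17 ± 0.04 (adjusted p = 0.0155), at 726.9 ± 42.1 in shERCC6L and 820 ± 8.34 in shNC. That call ended without shERCC6L replicate 1 or 2 (0.0524 and 0.0648) or shNC replicate 1 (0.0508). HSPA2, best known from male germ cells, and the divergent HSPA12A did not pass, with values of 0.08 and -0.08 on the log2 scale. HSPA2 was at 0.05 without shERCC6L replicate 3 and at 0.03 without shNC replicate 2. The HSPA12A groups nevertheless did not overlap, and it passed as lower with quantile normalization (-0.12, adjusted p = 0.0272).

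**Figure D3:**
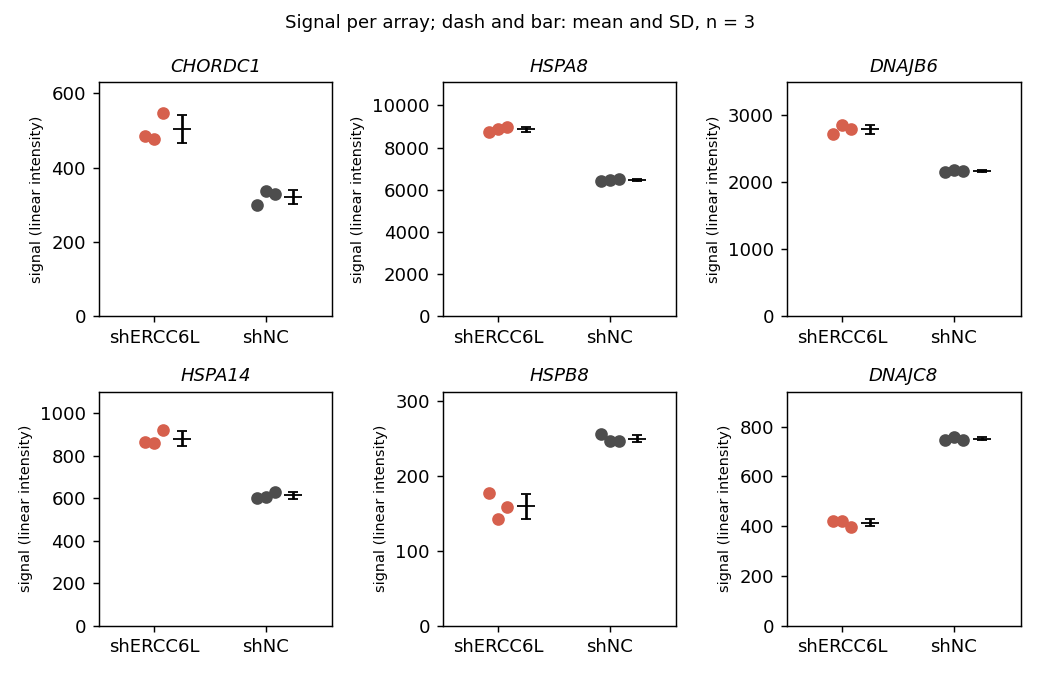
Linear signal (y axis, from 0) on each array for 6 genes, with shERCC6L left and shNC right, points for the 3 arrays of a group and a dash with a bar for the mean and SD. CHORDC1, HSPA8, DNAJB6 and HSPA14 are higher and HSPB8 and DNAJC8 lower on all 3 shERCC6L arrays.

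Of the cytosolic HSP90 pair, HSP90AA1, the stress-inducible form, was the one that rose. It read 3714, 3691 and 3657 in shERCC6L, against 2851, 2834 and 2922 in shNC, a log2 change of 0.36 ± 0.03 (adjusted p = 4.26e-05). HSP90AB1, the constitutive form, read 7678, 7928 and 7564 in shERCC6L, against 7331, 7053 and 7296 in shNC. Its groups did not overlap, but the log2 change of 0.10 ± 0.04 did not pass (adjusted p = 0.0722). It passed as higher with quantile normalization (adjusted p = 0.0496), median centring (0.0469), averaged probe sets (0.0337) and an intensity trend (0.00632). HSP90AB1 was read from 1 probe set, so its own change stayed at 0.10 in the fit with averaged probe sets. Within each array the log2 difference between the 2 genes was larger in shERCC6L by 0.26 ± 0.02 (SE), with no overlap between groups (exact permutation p = 0.10, 2-sided, adjusted p = 0.13 over 4 pairs of members). An exact p of 0.10 is the smallest that 3 arrays against 3 allow. The pairs HSPA1A with HSPA8 and HSF1 with HSF2 could not be compared, as one gene of each was not measured. TRAP1, the mitochondrial HSP90, read 1034, 1086 and 1069 in shERCC6L, against 1063, 964.9 and 1031 in shNC, and did not pass at 0.06, a value that was 0.09 without shNC replicate 1 and 0.02 without shNC replicate 2.

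All 5 measured HSP90 co-chaperone genes rose, beside 18.2% of all genes and 32.8% of the brighter ones, where all 5 lie. CHORDC1, an HSP90-binding zinc protein also called morgana, had the largest rise of the 42 genes on the brightest probe sets, a rank it did not hold with probe sets averaged. It read 485.8, 477.7 and 546.9 in shERCC6L, against 299.7, 337.1 and 327.8 in shNC, a 1.54-fold rise and a log2 change of 0.62 ± 0.06 (adjusted p = 6.26e-05). Of its 8 probe sets 6 rose, and the second brightest changed by 0.78, while the average of all 8, of which 5 were dim, was 0.35, below DNAJB6 (0.53), HSPH1 and HSPA14 (0.51 each) and HSPA4L (0.49) among others. CDC37, which loads kinases onto HSP90, read 1444, 1541 and 1430 in shERCC6L, against 1144, 1107 and 1186 in shNC. Its single probe set rose by 0.36 ± 0.04 (adjusted p = 0.000219).

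STIP1, the HOP adaptor that bridges HSP70 and HSP90, rose 1.19-fold to 1244 ± 32.6 in shERCC6L, against 1039 ± 12.4 in shNC. FKBP4, an immunophilin of steroid receptor complexes, rose 1.20-fold to 952.7 ± 15.6 in shERCC6L, against 789.4 ± 15.2 in shNC. One of its 3 probe sets was dim and did not pass, at 0.00, and the average over them was 0.17 rather than 0.27. PTGES3, the p23 protein that steadies ATP-bound HSP90, read 5089, 5056 and 5325 in shERCC6L, against 4411, 4318 and 4538 in shNC. It rose by 0.22 ± 0.04, and its 4 probe sets by 0.19 to 0.22.

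Of 14 J protein genes, 9 rose (64.3%), 1 fell (7.14%) and 4 did not pass, where 18.2% of all genes rose and 13.4% fell. Of the 14, 13 reach the median level, and among such brighter genes 32.8% rose and 19.6% fell. DNAJC2, the J protein of the ribosome-associated complex in which HSPA14 is its partner, read 727.6, 757 and 788.3 in shERCC6L, against 590.8, 567.8 and 567.1 in shNC. It rose by 0.39 ± 0.04 (adjusted p = 9.04e-05), so the transcripts of both subunits of that complex were higher. DNAJC21, a maturation factor of the large ribosomal subunit, rose by 0.34 ± 0.04, at 526.9 ± 21.2 in shERCC6L and 412.9 ± 4.29 in shNC. DNAJB6, which keeps polyglutamine and other aggregation-prone proteins soluble, read 2728, 2860 and 2800 in shERCC6L, against 2152, 2181 and 2174 in shNC.

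The 5 DNAJB6 probe sets fell into separate ranges. The 2 brightest rose by 0.36 and 0.26, and the other 3 by 0.63, 0.64 and 0.77. On the last of these DNAJB6 read 260.8, 262.7 and 255 in shERCC6L, against 145.5, 142.7 and 147.8 in shNC. The files do not say which transcript each probe set reads.

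The general J proteins DNAJA1, DNAJB1 and DNAJB4 rose. DNAJA1 read 1619, 1696 and 1734 in shERCC6L, against 1429, 1424 and 1405 in shNC, a log2 change of 0.24 ± 0.04, and its 5 probe sets all rose. DNAJB1, the main stress-inducible HSP40, read 470.7, 489.9 and 495.3 in shERCC6L, against 411, 403.4 and 439.4 in shNC, a change of 0.21 ± 0.04 (adjusted p = 0.0043). Their changes differed by 0.03 ± 0.04 within arrays (SE, exact permutation p = 0.90, adjusted p = 0.90). DNAJB4, a class B relative of DNAJB1, rose by 0.28 ± 0.04 on 2 of its 3 probe sets, by 0.28 and 0.26. DNAJA3, the mitochondrial partner of HSPA9, rose by 0.33 ± 0.04, at 519.8 ± 27.5 in shERCC6L and 411 ± 3.06 in shNC.

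The smaller rises were less firm. DNAJA2 rose by 0.12 ± 0.04 (adjusted p = 0.0293). The call ended without shERCC6L replicate 2 or 3 (0.088 and 0.0857) or shNC replicate 1 or 3 (0.104 and 0.0566), and with quantile normalization (0.0601) or a pseudocount of 1 (0.0654). DNAJC7, which binds both HSP70 and HSP90 through repeats, rose by 0.15 ± 0.04 (adjusted p = 0.0191). That call ended without shERCC6L replicate 3 (0.061) or shNC replicate 3 (0.0744).

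The J proteins that did not pass were DNAJB5, DNAJC9, DNAJA4 and DNAJB2. DNAJB5 missed narrowly at 0.18 ± 0.06 (adjusted p = 0.0504) and passed in 6 of 13 alternatives, among them without shNC replicate 1 (0.23, adjusted p = 0.0217). Without shNC replicate 2 the value was 0.10 (adjusted p = 0.0902). DNAJC9, a chaperone of histones, was at 0.05 on its brightest probe set, while another rose by 0.31, at 435.2, 440.1 and 424.4 in shERCC6L against 352.6, 330.8 and 353.2 in shNC. Its probe sets averaged 0.09 and then passed (adjusted p = 0.022). The brightest was at 0.03 without shERCC6L replicate 3 and at 0.04 without shNC replicate 1. DNAJA4 was dim, at 9.25 to 10.2 in shERCC6L and 9.56 to 10.5 in shNC. DNAJB2, a J protein with ubiquitin-binding motifs, was at -0.17 ± 0.07 (adjusted p = 0.0955), and all 6 of its probe sets had negative values. It passed as lower with averaged probe sets (adjusted p = 0.00515), with a replicate block (0.0268) and without shERCC6L replicate 1 (-0.24, adjusted p = 0.0156). Without shERCC6L replicate 3 the value was -0.11 (adjusted p = 0.273).

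DNAJC8, a J protein that associates with the spliceosome, had the largest change of the 42 genes, and in the other direction. It read 422.4, 420.3 and 398.3 on the shERCC6L arrays, against 748.7, 760.5 and 748.7 on the shNC arrays. The groups were far apart and each was tight. The signal was 1.79-fold lower in shERCC6L, a log2 change of -0.84 ± 0.04 (adjusted p = 5.53e-07). DNAJC8 was read by 1 probe set, of the type whose name ends in x_at, which Affymetrix gives to probe sets with probes that can match other transcripts. Of the 42 genes, 9 were read from such a probe set, HSPA1B, HSPB1, HSPE1, HSPD1, CDC37 and DNAJA1 among them.

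**Figure D4:**
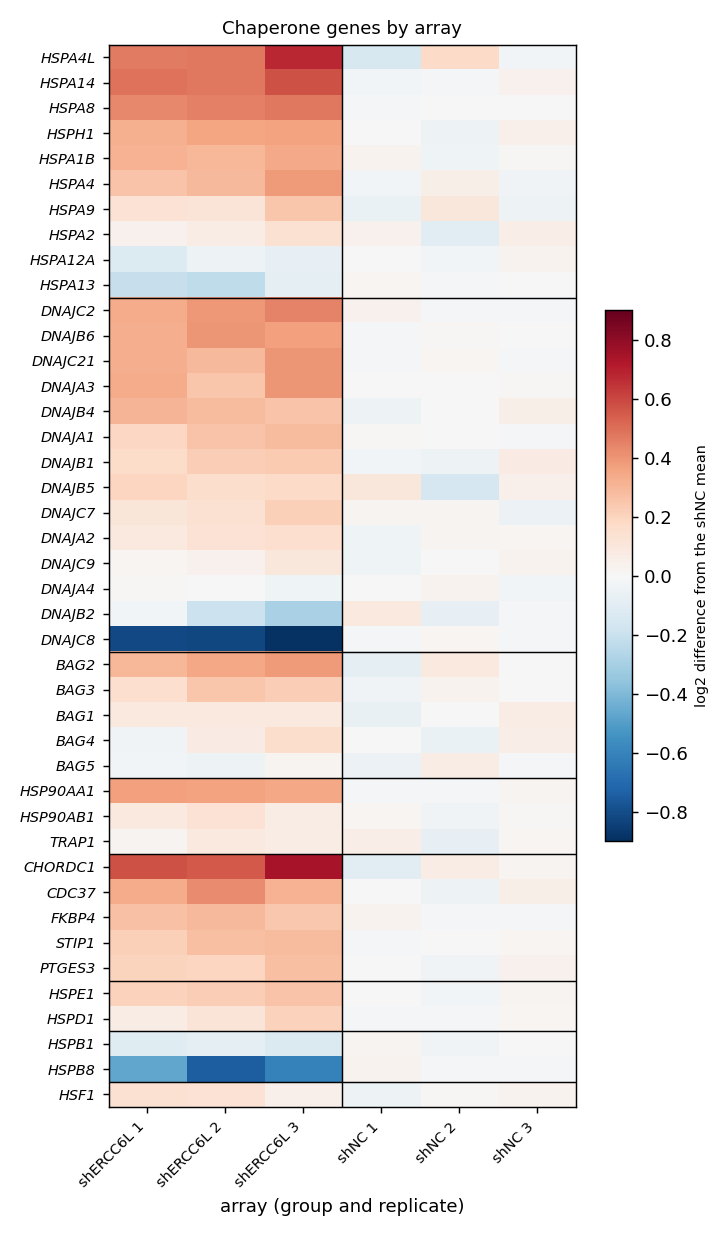
Log2 difference of each gene from its shNC mean (colour) on the 6 arrays (columns, shERCC6L left of the line and shNC right), with genes in rows by role. The red block on the left spans most HSP70, J protein and HSP90 co-chaperone genes on all 3 shERCC6L arrays, and DNAJC8 and HSPB8 are blue there.

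Array medians of these log2 differences over the 42 genes were 0.18, 0.21 and 0.24 on the shERCC6L arrays, against -0.01, -0.01 and 0.01 on the shNC arrays. The shift was therefore present on each knockdown array and did not rest on one of them. The shNC medians are small by construction, as each gene was set against its own shNC mean.

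Of the 5 BAG genes, whose products bind the ATPase domain of HSP70, BAG2 and BAG3 rose (40%) and none fell. All 5 reach the median level, and among such brighter genes 32.8% rose and 19.6% fell, beside 18.2% and 13.4% of all genes. The share that rose is thus not far from that of the brighter genes. BAG2, an inhibitor of the chaperone-linked ubiquitin ligase STUB1, read 593.7, 616.8 and 630.4 in shERCC6L, against 453.6, 510.3 and 478.1 in shNC, a log2 change of 0.34 ± 0.05 (adjusted p = 0.000511). BAG3, a stress-inducible factor that steers clients to autophagy together with HSPB8, read 582, 624.7 and 612.1 in shERCC6L, against 509.9, 534.5 and 521.6 in shNC, a change of 0.21 ± 0.04. BAG1, BAG4 and BAG5 did not pass, at 0.09, 0.07 and -0.02. BAG1 was at 0.06 without shNC replicate 1, and BAG4 at 0.12, 0.02 and 0.04 without shERCC6L replicate 1, shERCC6L replicate 3 or shNC replicate 2. The 5 BAG5 probe sets were split, with 2 lower (-0.12 and -0.30) and 3 not past the threshold, and their average of -0.08 passed as lower (adjusted p = 0.0329).

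Both measured small heat shock protein genes of the list, whose products hold unfolded proteins without using ATP, fell. The call for HSPB1 was lost in 8 of 13 alternatives. Over all genes 13.4% fell, and 19.6% of the brighter ones, where both genes lie. The 5 small heat shock protein genes measured outside the list, CRYAB, HSPB3, HSPB6, HSPB7 and HSPB9, did not pass, with log2 values of -0.04, 0.00, -0.06, -0.13 and -0.07. HSPB8 read 176.6, 143 and 158.2 in shERCC6L, against 255.6, 247.1 and 247 in shNC. Every knockdown array was well below the controls, with a log2 change of -0.61 ± 0.06 (adjusted p = 9.15e-05), and its second probe set changed by -0.60. The transcript of the partner BAG3 was thus higher and that of HSPB8 lower in the same cells. HSPB1, known as HSP27, read 4615, 4685 and 4542 in shERCC6L, against 5067, 4858 and 4990 in shNC, and fell by 0.11 ± 0.03 (adjusted p = 0.0402). That call ended without shERCC6L replicate 1, 2 or 3 (0.0799, 0.0688 and 0.108) or shNC replicate 1 or 3 (0.128 and 0.104). It ended as well with quantile normalization (0.197), a pseudocount of 1 (0.09) and a replicate block (0.0726).

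HSPE1 and HSPD1 encode HSP10 and HSP60, the lid and barrel of the mitochondrial chaperonin. They are neighbours that are read in opposite directions on chromosome 2. HSPD1 has 2 annotated starts, 105 and 539 bases from that of HSPE1. Its matches to the long motif lay in the window of the farther start only. HSPE1 read 905.3, 911.6 and 934.4 in shERCC6L, against 779.7, 767.3 and 796.8 in shNC, a log2 change of 0.23 ± 0.03 (adjusted p = 0.000816). HSPD1 read 4456, 4614 and 4919 in shERCC6L, against 4231, 4235 and 4302 in shNC, a smaller change of 0.13 ± 0.04 (adjusted p = 0.0421). The HSPD1 change was below that of HSPE1 by 0.10 ± 0.03 within arrays (SE, exact permutation p = 0.10, adjusted p = 0.13). Further probe sets shared with the readthrough HSPE1-MOB4 and the pseudogene HSPD1P5 were set aside. Only 3 of 7 HSPD1 probe sets rose and their average of 0.06 did not pass (adjusted p = 0.149). The HSPD1 call also ended with a pseudocount of 1 (0.0831), without shERCC6L replicate 2 or 3 (0.0869 and 0.121) and without shNC replicate 1, 2 or 3 (0.106, 0.0967 and 0.0806). Of the 5 mitochondrial chaperone genes, HSPA9, HSPD1, HSPE1, DNAJA3 and TRAP1, 4 rose (80%), and the median of the 5 was 0.16. All 5 reach the median level, and among such brighter genes 32.8% rose, beside 18.2% of all genes. The calls of HSPA9 and HSPD1 were lost in 8 and 7 of 13 alternatives.

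HSF1, the master factor of the heat shock response, read 272.9, 271.8 and 255.1 in shERCC6L, against 239, 248.8 and 252.1 in shNC. The groups did not overlap, but the log2 change of 0.11 ± 0.04 did not pass (adjusted p = 0.0734). It passed without shERCC6L replicate 3 (0.14, adjusted p = 0.0354) and in the fit with averaged probe sets (adjusted p = 0.0415). As the gene was read from 1 probe set, its own value stayed at 0.11 in that last fit. HSF1 is controlled largely at the protein level, which arrays do not measure. Of the members listed as inducible by heat, 16 of 19 rose (84.2%) and 2 fell (10.5%), with a median of 0.26. Of the 23 other measured members, 10 rose (43.5%) and 2 fell (8.7%), with a median of 0.11. Over all genes 18.2% rose and 13.4% fell. Among the brighter genes, where all 19 and 21 of the 23 lie, 32.8% rose and 19.6% fell. The list of heat-inducible members was also chosen with earlier results of these data known, so these shares are a description and no test. The part of HSF1 in them was not tested.

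Over all 134 probe sets 81 were higher (60.4%) and 10 lower (7.46%), where 17% and 12% of all probe sets were. Of the 30 genes with 2 or more probe sets, 13 rose on all of them, HSPB8 was lower on both of its own, and 0 had probe sets past the threshold in both directions. The other 12 genes, DNAJC8 and CDC37 among them, rest on 1 probe set.

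**Figure D5:**
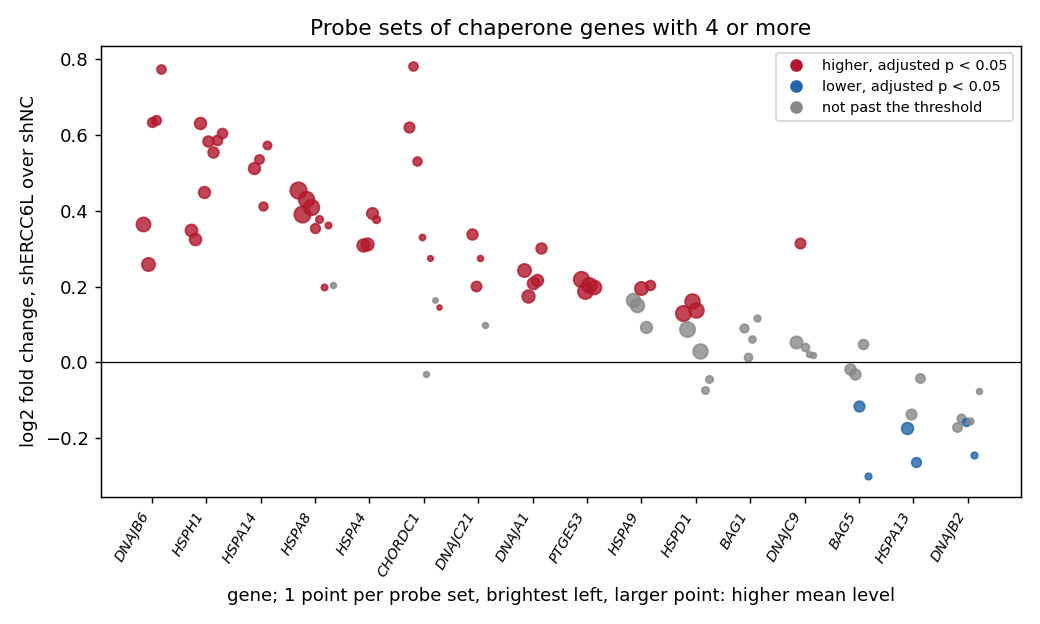
Log2 fold change (y axis, shERCC6L over shNC) of each probe set of the 16 genes with 4 or more, with larger points for brighter probe sets. All probe sets of DNAJB6, HSPH1, HSPA14, HSPA4, DNAJA1 and PTGES3 rose, while those of HSPD1, DNAJC9 and BAG5 include some that did not pass.

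Other genes of the chaperone system were read from lists that overlap: CACYBP, HSPA6 and CRYAB each stand in 2 of them. Of 25 other measured co-chaperones and assembly factors, 13 rose (52%, beside 18.2% of all genes) and 1, TTI1, fell (4%, beside 13.4%), with a median of 0.23. Of the 25, 24 reach the median level, and among such brighter genes 32.8% rose and 19.6% fell. NUDC, an HSP90 partner, read 1741, 1780 and 1733 in shERCC6L, against 1230, 1268 and 1236 in shNC, a log2 change of 0.49 ± 0.03. RUVBL1 and RUVBL2, the ATPases of the R2TP complex that works with HSP90, rose by 0.49 ± 0.04 and 0.46 ± 0.03, and the immunophilin gene FKBP5 by 0.39 ± 0.04. Of 27 other J proteins, 5 rose and 2 fell, with a median of 0.02. Their share that rose, 18.5%, is near the 18.2% of all genes. GAK, which works with HSPA8 in uncoating clathrin, and DNAJC25 rose by 0.20 and 0.22, while DNAJC22 and DNAJC4 fell by 0.29 and 0.20. With probe sets averaged the GAK change was 0.13.

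Among 13 other genes of mitochondrial protein import and quality control, 2 rose (15.4%) and 1 fell (7.69%), both shares below those of all genes. All 13 reach the median level, and among such brighter genes 32.8% rose and 19.6% fell. GRPEL1, the nucleotide exchange factor of HSPA9, read 867.4, 867.4 and 885.9 in shERCC6L, against 676.6, 671.3 and 674.1 in shNC, a change of 0.37 ± 0.03 (adjusted p = 3.36e-05). The protease genes SPG7 and YME1L1 were at 0.22 and -0.20. Both calls ended with averaged probe sets, at 0.01 (adjusted p = 0.809) and -0.06 (0.169), and that of YME1L1 also without shERCC6L replicate 1 (-0.16, adjusted p = 0.0501).

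Of 14 other measured genes known to be inducible by heat, 6 were higher (42.9%) and 4 lower (28.6%). Over all genes 18.2% rose and 13.4% fell. Among the brighter genes, where 11 of the 14 lie, 32.8% rose and 19.6% fell. SERPINH1, the collagen chaperone HSP47 of the endoplasmic reticulum, read 1175, 1150 and 1190 in shERCC6L, against 1645, 1617 and 1645 in shNC, a log2 change of -0.48 ± 0.03 (adjusted p = 9.2e-06). HMOX1, haem oxygenase 1, rose by 0.34 ± 0.05 and CACYBP by 0.29 ± 0.04, while ATF3 fell by 0.21 ± 0.04. Averaging the probe sets gave 0.11 for CACYBP and -0.12 for ATF3. HSPA6, an HSP70 made almost only under strong stress, was dim, at 18.44, 14.17 and 18.22 in shERCC6L against 20.52, 23.7 and 20.16 in shNC. It was lower (-0.19, adjusted p = 0.0391), but that call ended in 7 of 12 alternatives, including without shERCC6L replicate 2 (adjusted p = 0.119) and without shNC replicate 1, 2 or 3 (0.0616, 0.124 and 0.0536). With a pseudocount of 1 its change was -0.33. Of the 9 measured other members of the heat shock protein families, HSPA6 was the only one to pass, and 0 of the 9 reached the median level.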

How the data were processed

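Single-channel Affymetrix arrays were used, 3 from shERCC6L cells and 3 from shNC cells. The values deposited by the authors are linear probe set intensities. Affymetrix Expression Console produced them, per the submitters' processing notes, and neither its version nor how it corrected, normalized and summarized the probes is stated there. No detection calls or scan dates were used, so no signal can be given above which a gene is detected. Precision is set by how many arrays there are.

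Of 49395 probe sets, 102 controls, 1832 with several gene symbols and 2473 with none listed here were left out. Gene numbers of 44961 of the other 44988 matched RefSeq (GRCh38.p14), which changed no symbol. Intensities were transformed to log2(signal + 16), and each gene was read from its brightest probe set, judged by the mean of all arrays. All 18132 genes were fitted in R 4.3.3 with lmFit and eBayes of limma 3.58.1, 2-sided and with no block. Benjamini-Hochberg adjustment ran over all of them, with a threshold of 0.05. A second fit took all 44988 probe sets. The code was tested on simulated data. Differences between a pair of members were tested by exact permutation of the arrays.

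The members and the lists were chosen with earlier results of these data known. Named genes are all members, ERCC6L, and up to 4 genes past the threshold with the smallest adjusted p from each list of other genes. Any further gene was picked with its values in view. The alternatives are given at the end.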

Additional observations from a re-analysis of the deposited data

How the results depend on the processing

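Counts and medians were recomputed under 14 alternatives, and single genes under 13, without the fit of every probe set. Of the 26 chaperone genes that rose, 22 passed as higher in all 13, and the exceptions were DNAJA2, DNAJC7, HSPA9 and HSPD1. Of the 4 that fell, DNAJC8 and HSPB8 passed in all 13, and HSPA13 and HSPB1 did not. Of the 12 that did not pass, 7 passed in at least 1. The median log2 fold change of the members, 0.21, was 0.173 with quantile normalization and 0.181 with averaged probe sets. Counting every probe set gave 81 higher and 10 lower among the members, 7647 and 5405 over the whole array, and 61 and 15 in the lists of other genes (25 and 8 by gene). These counts rise by construction, as a gene enters more than once. Leaving out 1 array gave 2 to 4 members lower, with 2 without shERCC6L replicate 2 or shNC replicate 1, and 22 to 25 higher. The within-array difference between DNAJA1 and DNAJB1 ran from -0.0086 (without shNC replicate 3) to 0.0603. Replicate numbers are shared between groups, but the deviations of same-numbered arrays were not alike (correlations of 0.24, -0.14 and -0.01). With the replicate block 26 members were higher and 4 lower. Dim probe sets such as those of DNAJA4 and HSPA6 lie where signal over background is unknown.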
